A study of Homo sapiens with 3 samples.

Results

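PRCC-TFE3 occupancy was examined at 8 autophagy genes, *SQSTM1*, *NBR1*, *MAP1LC3B*, *GABARAPL1*, *WIPI1*, *ATG16L1*, *UVRAG* and *VPS18*. The genes were chosen by name, and their members were the ChIP peaks that lay inside each gene or within 10 kb of it in hg19. The windows covered 675.0 kb in all and held 47 of the 109205 narrowPeak peaks of replicate 1 and 39 of the 81300 of replicate 2, which merged into 52 of the 117702 union regions of the genome. The BED lists gave 33 of 84248 peaks and 27 of 63535 peaks in the same windows. The data came from HK-2, a cell line derived from human renal proximal tubule, in which doxycycline switches on PRCC-TFE3 with an HA tag. All 3 libraries, 2 anti-HA ChIP replicates and 1 input DNA, came from cells given doxycycline at 0.2 µg/mL for 24 h. They contained 12235754, 7418533 and 21695224 tags, respectively, as recovered from the peak lists and their scaling. Because there was 1 ChIP condition, no biological contrast could be tested, and cells without doxycycline or without the tag were not analysed here.

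Autophagy encloses cytoplasmic cargo in a double membrane and delivers it to the lysosome. TFE3 and its relatives TFEB and MITF are basic helix-loop-helix leucine zipper proteins that bind E-box elements in promoters of lysosomal and autophagy genes, and in normal cells they are held in the cytoplasm while nutrients are plentiful. PRCC-TFE3 is a fusion found in *TFE3*-rearranged renal cell carcinoma and keeps the DNA-binding part of TFE3. Among the genes studied, SQSTM1 (p62) and NBR1 are cargo receptors, and MAP1LC3B and GABARAPL1 are ubiquitin-like proteins that are attached to the growing membrane. ATG16L1 is part of the complex that attaches them, and WIPI1 binds phosphoinositides at the site of membrane formation. UVRAG is part of the lipid kinase complex that contains Beclin, and VPS18 is a subunit of the tethering complexes that act before fusion with the lysosome.

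To relate the peaks to sequence, upstream sequences were taken from RefSeq (GRCh38.p14), which listed 6 of the 8 genes. UVRAG and VPS18 had no entry. The sequences below run 5′ to 3′ over the 250 bases before the annotated start, and capitals mark matches to the motifs searched. MAP1LC3B, WIPI1 and ATG16L1 are shown as examples of listed genes with the summits of both replicates within 250 bp of the start in hg19 (NBR1, which also met this, is not shown), and GABARAPL1 because it had the highest fold enrichment at a start. They are located at chr16:87392086-87392335 (+), chr17:68457497-68457746 (−), chr2:233251423-233251672 (+) and chr12:10212627-10212876 (+) of GRCh38, respectively.
MAP1LC3B: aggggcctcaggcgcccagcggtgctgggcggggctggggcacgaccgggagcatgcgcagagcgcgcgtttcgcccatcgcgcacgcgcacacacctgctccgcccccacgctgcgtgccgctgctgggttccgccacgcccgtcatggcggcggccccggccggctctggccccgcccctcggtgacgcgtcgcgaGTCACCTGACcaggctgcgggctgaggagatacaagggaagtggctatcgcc
WIPI1: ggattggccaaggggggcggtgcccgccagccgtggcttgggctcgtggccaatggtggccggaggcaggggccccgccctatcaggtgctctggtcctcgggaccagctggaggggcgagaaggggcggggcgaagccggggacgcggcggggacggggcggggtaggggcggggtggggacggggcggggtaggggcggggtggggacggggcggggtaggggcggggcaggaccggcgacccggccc
ATG16L1: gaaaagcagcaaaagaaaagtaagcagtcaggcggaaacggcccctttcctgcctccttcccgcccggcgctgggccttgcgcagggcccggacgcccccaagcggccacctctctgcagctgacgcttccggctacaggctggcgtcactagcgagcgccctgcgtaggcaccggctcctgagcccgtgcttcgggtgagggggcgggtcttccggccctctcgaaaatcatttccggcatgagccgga
GABARAPL1: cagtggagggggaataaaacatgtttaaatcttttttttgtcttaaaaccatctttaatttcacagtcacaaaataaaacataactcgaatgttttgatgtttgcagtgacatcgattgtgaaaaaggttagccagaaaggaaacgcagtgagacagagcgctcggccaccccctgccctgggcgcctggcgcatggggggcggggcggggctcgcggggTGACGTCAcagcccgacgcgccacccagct

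The motifs were searched on both strands from 250 bases before to 50 bases after each start. In *MAP1LC3B*, a palindrome of GTCA and TGAC separated by any 2 bases, which has the outer arms of the element found in many lysosomal genes, began at position -52, counted back from the start. It was present in 0.968% of all 35116 RefSeq promoters. Its inner part, TCANNTGA, which overlaps it, began at position -51 and was present in 7.31% of promoters. In *GABARAPL1*, the cyclic AMP response element TGACGTCA began at position -30 and was present in 1.85% of promoters. The canonical E-box CACGTG, which 7.26% of promoters held, the M-box core CATGTG (11.1%) and the AP-1 element TGANTCA (7.71%) had no match in the windows of the 6 listed genes. Thus *WIPI1* and *ATG16L1*, and each start listed for *SQSTM1* and *NBR1*, had no match to any of the motifs. The GC content of the 250 bases was 74.8% in *MAP1LC3B*, 79.6% in *WIPI1* and 66.4% in *ATG16L1*, all above the median of all promoters (58.0%). It was 51.6% in *GABARAPL1*, and 51.6% and 54.8% at the starts listed for *NBR1*. At the starts listed for *SQSTM1* it was between 73.6% and 75.2%. The motif matches are matches of letters in a short window and not binding sites. By hg19 distances, the nearest shared summits of *GABARAPL1*, 474 and 464 bp upstream, lay outside the window searched. Those of *SQSTM1*, 2224 and 2217 bp inside the gene, did so as well. For these 2 genes the search therefore does not describe the sequence under the summits. The nearest shared summits of *WIPI1*, 228 and 222 bp upstream, lay near the edge of the window, and their region extended beyond it. That region was thus searched only in part. For no gene were positions converted between the builds.

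Next, the number of sites at each gene was compared. Union regions that contained peaks from both replicates are referred to as shared. Of the 52 regions, 31 (59.6%) were shared, compared with 59.8% of regions over the genome, so the genes did not stand apart in this respect. The density of shared regions was 45.9 per Mb in the windows and 22.8 per Mb over chromosomes 1 to 22, X and Y. Replicate 1 alone gave 16 further regions, with fold enrichments from 3.04 to 6.95, and replicate 2 alone gave 5, from 3.85 to 5.13. Fold enrichment here is the value at the summit as given by the authors' peak caller. All regions found once were thus below the median of all peaks in their list, which was 7.49 in replicate 1 and 7.32 in replicate 2. With 10 kb on either side, *MAP1LC3B* had the most shared regions, 7 in 32.6 kb, and all of its regions were shared. This rank turned with the window, since *MAP1LC3B* had 2 in the gene body alone, against 3 in each of *SQSTM1*, *ATG16L1*, *VPS18* and *NBR1*, and with 50 kb it had 7, against 12 in *VPS18*. With peaks of replicate 1 alone, *SQSTM1* had 8 regions and *MAP1LC3B* 7. Of the regions shared by both replicates within 10 kb, *WIPI1* had 5, *SQSTM1*, *ATG16L1* and *VPS18* had 4 each, *NBR1* had 3, and *GABARAPL1* and *UVRAG* had 2. The *UVRAG* window was the longest at 349.1 kb and had 5.73 shared regions per Mb. Without *UVRAG*, the other 7 windows had 29 shared regions, or 89 per Mb, but this leaves out the sparsest window. The genome figure of 22.8 per Mb also spans the DNA between genes. Windows of other genes were not counted, so whether the density is particular to autophagy genes was not tested. None of the 286 input DNA peaks fell in the 8 windows, but so few peaks over 3094 Mb would rarely fall in 675.0 kb in any case. At the edge of the 10 kb rule, the shared regions just inside were 9429 bp (*MAP1LC3B*, fold enrichments 11.9 and 8.48) and 9136 bp (*MAP1LC3B*, 4.05 and 5.56) from their gene. Those just outside were 10889 bp from *SQSTM1* (4.81 and 6.42) and 12686 bp from *GABARAPL1* (7.45 and 5.68).

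**Figure D1:**
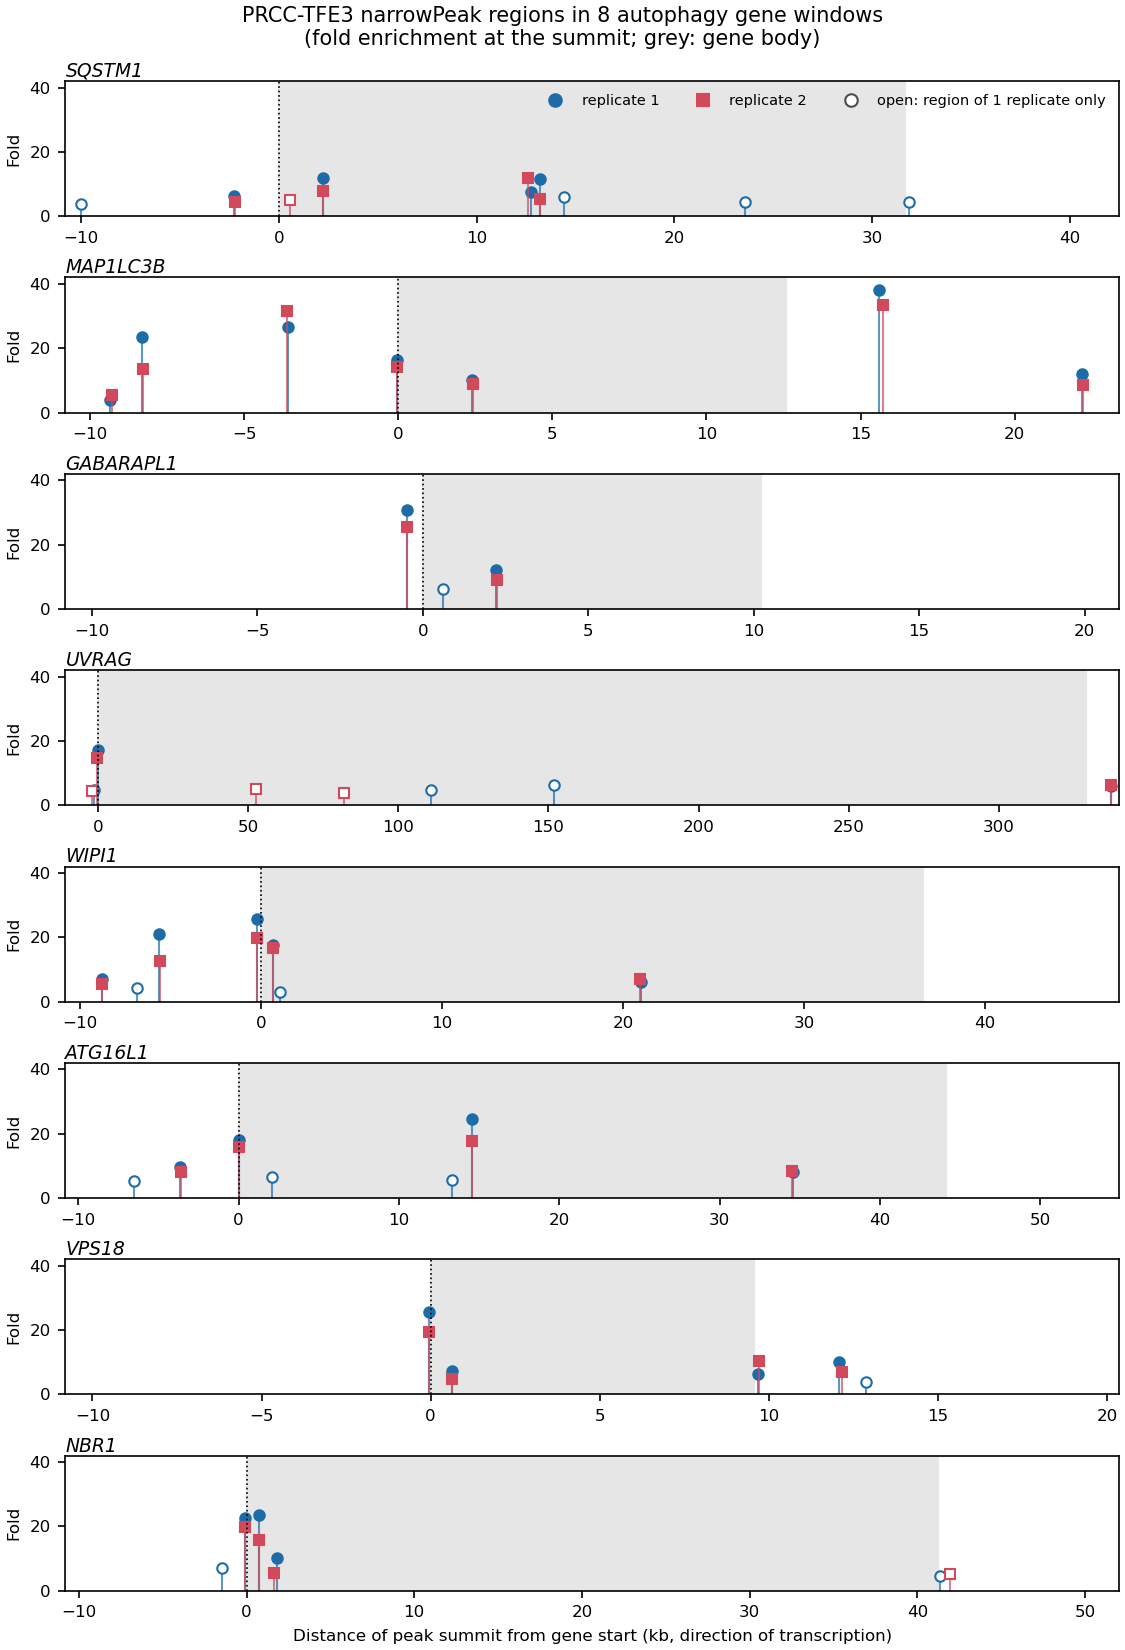
Fold enrichment at the summit (vertical axis) of each narrowPeak region against its distance from the gene start in kb (horizontal axis), one panel per gene; circles are replicate 1, squares are replicate 2, open symbols are regions of 1 replicate only, and the gene body is shaded. Filled symbols stand close to the dotted start line in every panel except that of *SQSTM1*, and the body of *UVRAG* has open symbols only.

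Gene starts were then examined. A shared region had a summit within 1000 bp of the start in 7 of the 8 genes, and *SQSTM1* was the exception. For *SQSTM1* this holds for the start used here, the first base of the gene. RefSeq lists 3 starts for it, the last 14512 bp after the first in GRCh38, and distances from the later ones were not analysed here. For orientation, 4.26% of all genome tiles of the width of this window, 2001 bp, held a summit of a shared region. Tiles are not gene starts, and the share over all annotated starts was not analysed here, because the annotation at hand was on another build. The nearer summit was 5 bp from the start in *ATG16L1*, 37 bp in *MAP1LC3B*, 40 bp in *VPS18*, 77 bp in *UVRAG*, 86 bp in *NBR1*, 222 bp in *WIPI1* and 464 bp in *GABARAPL1*. *WIPI1*, *VPS18* and *NBR1* had a second shared region within 1000 bp. The 10 regions at starts had a median lower-of-both fold enrichment of 16.4, compared with 7.7 for the other shared regions of these windows and 7.65 for all 70426 shared regions. Their median width was 461 bp, and that of all shared regions was 370 bp. Shared regions at the starts of other genes were not analysed here, so neither difference can be called particular to these genes. In 5 genes the region with the highest lower-of-both fold in the window was at the start.

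**Figure D2:**
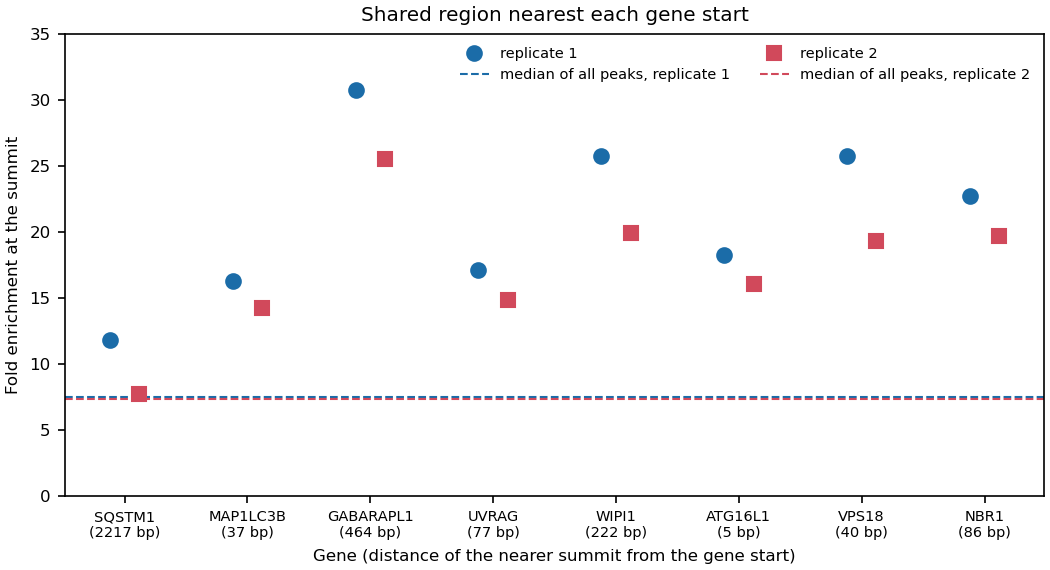
Fold enrichment at the summit (vertical axis) of the shared region nearest the start of each gene (horizontal axis, with the distance of the nearer summit in bp) in replicate 1 (circles) and replicate 2 (squares); dashed lines are the medians of all peaks, 7.49 and 7.32. The values of 7 genes lie at 14.2 or above, and those of *SQSTM1*, 2217 bp from its start, are 11.8 and 7.70.

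The highest fold enrichments lay in the windows of *MAP1LC3B* and *GABARAPL1*, the genes of the ubiquitin-like proteins. This holds for the windows and not for both starts. Of the 7 genes with a shared region at the start, *GABARAPL1* had the highest values in the region nearest the start and *MAP1LC3B* the lowest. At *GABARAPL1*, chr12:10364635-10365520 reached 30.7 in replicate 1 and 25.5 in replicate 2, with summits 474 and 464 bp upstream of the start. Here and for the other genes, the first value of a pair belongs to replicate 1, and coordinates are in hg19. Both values were among the top peaks of their lists, at percentiles 99.1 and 98.1. The BED window at this site contained 62 and 40 tags, or 50.7 and 53.9 at a library size of 10000000, and 0 input tags. A count of 0 allows up to 1.38 input tags at this size, so the ChIP signal, taken as counted, was at least 36.6-fold and 39-fold higher. The peaks were called against this same input library, which serves both replicates. Ratios over input, here and for the other genes, therefore describe called sites and are no separate test of enrichment. A weaker shared region lay in the gene body, 2199 and 2244 bp after the start, with fold enrichments of 12.1 and 8.91. RefSeq places an antisense transcript, *GABARAPL1-AS1*, over this gene, and the peaks cannot be assigned to either transcript.

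*MAP1LC3B* had a series of sites. At its start, chr16:87425545-87426028, the fold enrichments were 16.3 and 14.2, and summits were 51 and 37 bp upstream. The palindrome shown above begins 52 bases upstream in GRCh38; these distances come from different builds and starts and were not converted. The BED window contained 37 and 24 tags and 3 input tags. The ratio over input was 21.9 (95% exact interval, 6.92 to 111) and 23.4 (7.11 to 121). Higher values were found on either side of this region. The region 3574 and 3617 bp upstream had fold enrichments of 26.6 and 31.6, with 66 and 56 tags. The region with the highest values of all 8 windows, chr16:87441153-87441784, had fold enrichments of 38.0 and 33.3, at percentiles 99.9 and 99.7, with 75 and 54 tags. Its summits were 15604 and 15716 bp after the start, beyond the end of the gene. The fourth strong region, 8304 and 8275 bp upstream, had values of 23.4 and 13.5, and the remaining ones were between 4.05 and 11.9. In RefSeq (GRCh38), *FBXO31* and *ZCCHC14* lie within 10 kb of *MAP1LC3B*, at lower and higher coordinates, respectively, and which regions fall in them was not analysed here.

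The genes that build the membrane also had regions at their starts. *WIPI1*, which binds phosphoinositides at the site of membrane formation, had a pair of them. The first, chr17:66453731-66454169, was 228 and 222 bp upstream, with fold enrichments of 25.7 and 19.9 and with 50 and 31 tags against 1 input tag. Its ratio over input was 88.7 (95% exact interval, 15.2 to 3571) and 90.7 (15.1 to 3695), wide intervals that reflect the single input tag. The second lay 684 and 676 bp inside the gene and had values of 17.7 and 16.7, with 33 and 25 tags. A further region 5604 and 5571 bp upstream reached 20.9 in replicate 1 and 12.6 in replicate 2. The remaining regions of *WIPI1*, 1 upstream and 1 in the body, had values of 7.18 and 5.41 and of 6.22 and 7.02. Between the sites at the start, the higher values were upstream in both replicates. RefSeq lists *PRKAR1A* and *ARSG* as overlapping *WIPI1*. *ATG16L1*, a part of the complex that attaches LC3-type proteins to lipid, had a region at chr2:234160039-234160442 with summits 5 and 23 bp after the start. Its fold enrichments were 18.2 and 16.0, with 36 and 25 tags against 1 input tag, for ratios of 63.8 (10.7 to 2590) and 73.1 (12 to 3002). The strongest region of this gene, however, was in its body, 14551 and 14576 bp after the start. It was 1113 bp wide and had fold enrichments of 24.7 and 17.8, with 54 and 29 tags against 3 and 2 input tags. Its other shared regions were weaker, with values of 9.77 and 8.09 upstream and of 8.02 and 8.34 in the body.

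*UVRAG* and *VPS18*, which act in lipid kinase signalling and in tethering, each had 1 strong region at the start and weaker ones elsewhere. At *UVRAG*, chr11:75525683-75526359 had fold enrichments of 17.1 and 14.8, with 32 and 23 tags and 0 input tags, at least 18.9-fold and 22.4-fold over input. Summits were 77 and 187 bp upstream. In the 329071 bp of its body there were 4 regions, and each was found in 1 replicate only, with fold enrichments from 3.85 to 6.42. The other shared region, past the end of the gene, was weak as well (5.88 and 6.42). A divergent transcript, *UVRAG-DT*, neighbours this start in RefSeq. At *VPS18*, chr15:41186306-41186843 had fold enrichments of 25.7 and 19.3, with 49 and 28 tags and 0 input tags, at least 29-fold and 27.3-fold over input. Its summits, 40 and 43 bp upstream, were 3 bp apart from each other along the gene. The second region at this start was weak, with fold enrichments of 7.18 and 4.81. Past the end of the gene, a region 9680 and 9712 bp from the start had a lower fold in replicate 1 (6.42) than in replicate 2 (10.3), and the last region, 12067 and 12171 bp from the start, had values of 10.2 and 7.02.

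Of the cargo receptors, *NBR1* resembled the genes above. The region chr17:41322209-41322583 had fold enrichments of 22.7 and 19.7, with summits 86 and 112 bp upstream, and with 43 and 30 tags and 0 input tags. This was at least 25.4-fold and 29.2-fold over input. A second region of similar height, with values of 23.5 and 15.9 and with 48 and 28 tags against 1 input tag, lay 715 and 733 bp inside the gene. RefSeq lists 2 starts for *NBR1*, 805 bp apart in GRCh38. It also places *LOC124900391* over this gene. Within 10 kb lie *BRCA1P1*, *BRCA1* and *LOC101929767* at lower coordinates, on the side of the start, and *TMEM106A* and *CCDC200* at higher ones. The peaks cannot be assigned among them. The third shared region of *NBR1* was weaker (10.2 and 5.68), and no other shared region lay in the 61.2 kb window of this gene. The peaks with the most tags of either BED list, 245 and 201, were also on this chromosome but 37.2 kb past the end of *NBR1*, outside the window, and those windows held 33 input tags.

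*SQSTM1* differed. Its nearest shared region, chr5:179234594-179235741, had summits 2224 and 2217 bp inside the gene and fold enrichments of 11.8 and 7.70. This region was wide, and its BED peaks did not contain these summits. In replicate 1, a BED peak of 17 tags and 4 input tags, centred 1569 bp from the start, had a ratio over input of 7.54 (95% exact interval, 2.46 to 30.8). Another, also of 17 tags but with 0 input tags, was centred at 2114 bp, ended 6 bp short of the summit and was at least 10-fold over input. In replicate 2, the only BED peak had 8 tags and 2 input tags, a ratio of 11.7 (2.33 to 113), and was centred at 1742 bp, so these ratios do not describe the summits. A peak 578 bp from the start was found in replicate 2 only, with a fold enrichment of 5.13. Further into the gene, a pair of shared regions followed each other. The first was 12736 and 12609 bp from the start, with fold enrichments of 7.52 and 12 and with 30 and 19 tags. The second was 13210 and 13224 bp from the start, with values of 11.5 and 5.41, and it had 25 tags in replicate 1 and no BED peak in replicate 2. By fold enrichment the replicates ranked these sites differently. By tags the first was higher in replicate 1, and in replicate 2 the second had no count to compare. Upstream of the gene, 2266 and 2233 bp from the start, a weak shared region had values of 6.42 and 4.49. RefSeq lists 3 starts for *SQSTM1*, of which the last lies 14512 bp after the first in GRCh38. The pair of shared regions, 12609 to 13224 bp from the start used here, lay before that last start. These distances come from different builds and were not converted. A peak of replicate 1 only, 14448 bp from the start used here, had a fold enrichment of 6.05. The start used here was the first base of the gene, so sites at a later start were counted in the gene body. RefSeq places *MGAT4B* and *MRNIP* over *SQSTM1*, and peaks cannot be assigned between them.

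**Figure D3:**
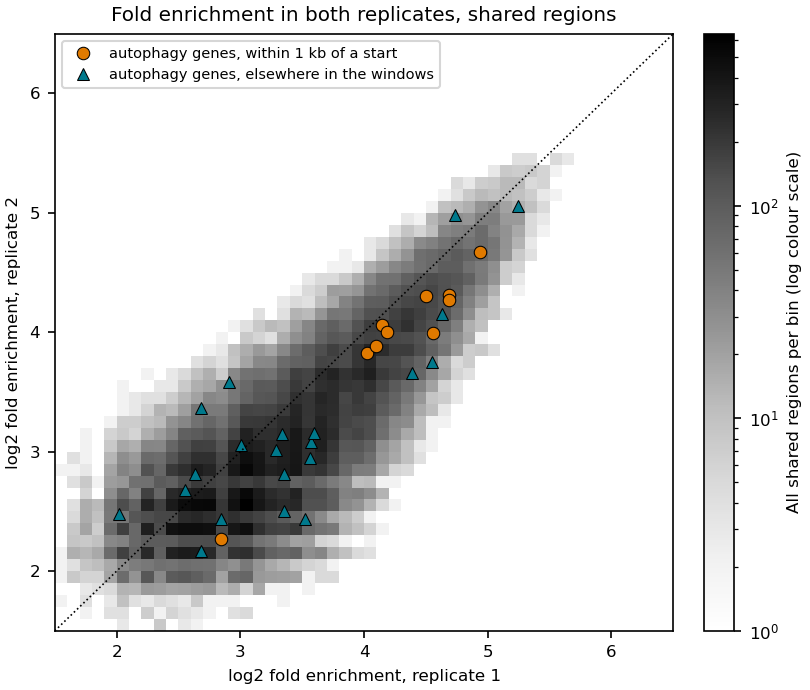
log2 fold enrichment in replicate 1 (horizontal axis) and replicate 2 (vertical axis) for all shared regions (grey, number per bin on a log colour scale) and for the 31 shared regions of the autophagy genes, within 1 kb of a start (circles) or elsewhere (triangles); the dotted line marks equal values. 9 of the 10 circles lie in the upper part of the grey cloud, and the other one is the weak second region of *VPS18*.

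To place these sites among all others, they were ranked by the lower of both fold enrichments. Of the 31 shared regions, 20 (64.5%) exceeded the median of all shared regions and 11 did not, and 8 were at or above percentile 90. The regions nearest the start of *GABARAPL1*, *WIPI1*, *NBR1* and *VPS18* were at percentiles 98.3, 94.8, 94.3 and 94.0. Those of *ATG16L1*, *UVRAG* and *MAP1LC3B* were at 89.2, 86.5 and 85.0, and that of *SQSTM1* was at 52.7. Replicate 1 had the higher fold in all 8 regions nearest a start and in 24 of the 31 shared regions, compared with 72.6% of all shared regions. In the BED lists, 26 of the 31 shared regions, including 9 of the 10 at starts, had a peak in both replicates, compared with 77.3% of all shared regions. The median distance between the summits of both replicates was 29 bp, and 24 of 31 distances were within 50 bp. The widest, 211 bp, was at the third region of *NBR1*.

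Finally, tag counts were used to ask whether the replicates differed at these sites beyond counting error. Of 55655 BED peaks that could be matched between the replicates, 26 were in the windows, out of 33 and 27 called there. Sites called in 1 replicate only did not enter the test, so the sites at which the replicates differ most may be missing from it. Replicate 2 contributed 39.5% of their tags, 581 against 891 in replicate 1, compared with 39.8% over all matched peaks. The share ranged from 31.5% at the outer upstream region of *MAP1LC3B* (23 of 73 tags; 95% exact binomial interval, 21.1% to 43.4%) to 55.6% at the region past the end of *VPS18* (35.3% to 74.5%). All 26 intervals included the share of the genome. In exact binomial tests, two-sided and adjusted over all matched peaks, 0 of the 26 matched peaks passed the threshold (lowest adjusted p = 1), and 0 had an unadjusted p under 0.05. Over the genome 0% were called and 2.2% had an unadjusted p under 0.05. With 19 to 129 tags per peak, intervals were wide, so smaller differences were not detectable at this depth. The test compares 2 libraries of the same group and covers counting error only.

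**Figure D4:**
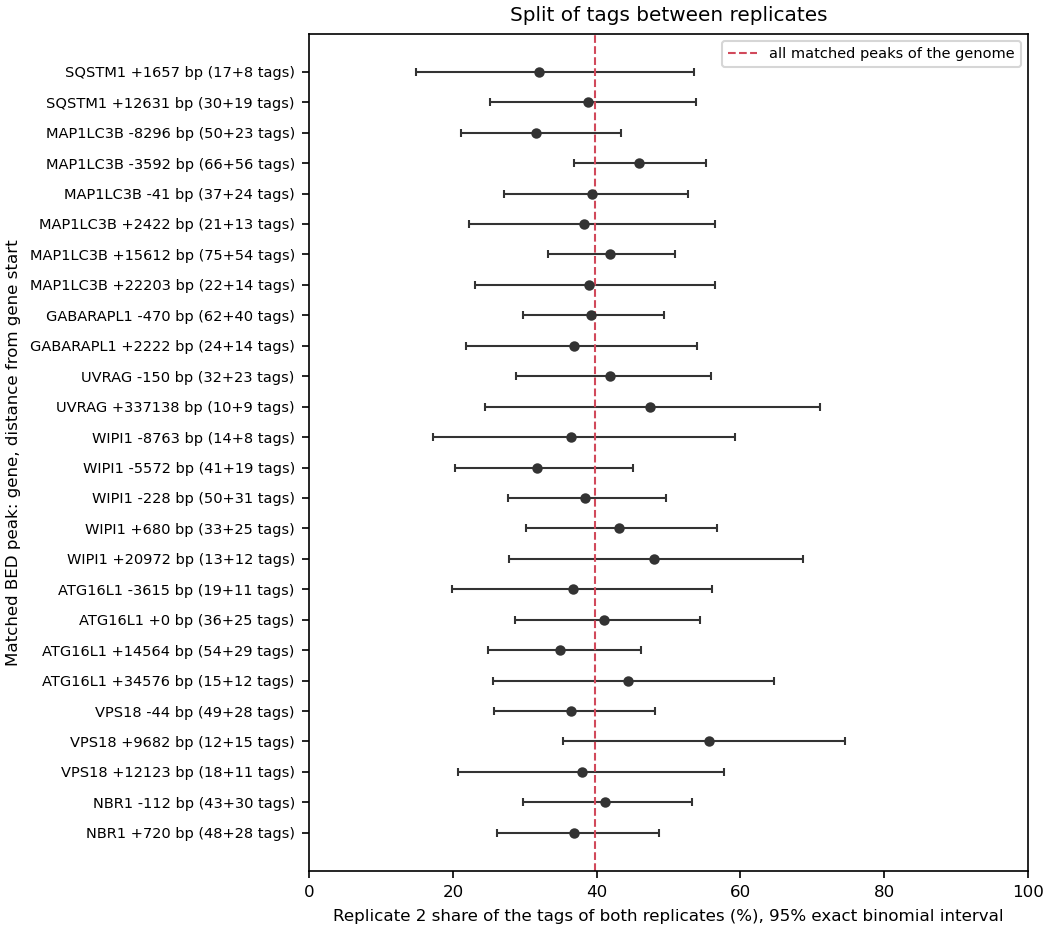
Share of replicate 2 in the tags of both replicates in percent (horizontal axis) for the 26 matched BED peaks of the autophagy genes (vertical axis, with the distance of the peak centre from the gene start in bp and the tags of replicates 1 and 2); bars are 95% exact binomial intervals and the dashed line is the share over all matched peaks, 39.8%. Each interval crosses the line.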

How the data were processed

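ChIP-seq peak lists of 2 HA-PRCC-TFE3 ChIP replicates and 1 input DNA library were used. Chromatin was digested with micrococcal nuclease, and an antibody to HA was used for the precipitation. According to the methods, peaks were called with MACS in Strand NGS against input DNA. The methods name no other caller and do not say whether the narrowPeak and BED lists both came from it. The median width of BED peaks was 208 and 212 bp in replicates 1 and 2, against 280 and 284 bp for narrowPeak peaks. The aligner and the handling of duplicates are not given in the sources used here. Per the labels, the build is hg19. The authors called peaks per sample. The deposited narrowPeak lists held a fold enrichment ratio, −log10 p and q values, a score (10 times −log10 q) and a summit offset. The deposited BED lists had displaced headers and were read by position. In them, the authors gave the count of tags per peak and a score. The deposited signal values were tags scaled to a fixed library size of 10000000 and input tags scaled to the ChIP library. The deposited files also held fold ratios, p-values and a fraction for how concentrated the tags of a peak were.

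Gene positions were those given in hg19 for this selection. The genes, lists and tests were chosen with earlier results of these data known. For each gene, the region nearest the start and that with the highest lower-of-both fold were given in full, and the others more briefly or by count and range. Peaks of both replicates were merged at 1 bp overlap. Library totals were recovered as tags over scaled signal; the fixed size is assumed from the column order, and fold values do not depend on it. Input tags were recovered from the tags and the fold over input, with the lowest value taken as 0 tags. Of these values, 100% were whole within 0.05 tags or 1%. A percentile is the share of peaks with the same or a lower value. Overlapping BED peaks were matched by nearest centre and tested with exact binomial tests and Benjamini-Hochberg adjustment (scipy 1.17.1), which were tested on simulated data. Intervals and floors (3 tags) cover counting error only. The paper calls the replicates biological, and the labels do not say whether they came from separate cultures. Alternatives were another list, a stricter q, other windows, 50% reciprocal overlap and single replicates. The reference genome was on another build and was not used for coordinates. Other autophagy genes need an hg19 annotation and were not analysed here.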

Additional observations from a re-analysis of the deposited data

How the results depend on the processing

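The count of 7 genes with a shared region at the start was the same with the BED lists, with q below 1e-05, with 50% reciprocal overlap and with a window of 500 bp, and each of these gave the same 7 genes. It was 8 with a window of 5000 bp, which took in *SQSTM1*. With 1 replicate left out, it was between 7 and 8, since the peaks of replicate 2 alone include the one 578 bp from the start of *SQSTM1*. The number of shared regions in the windows, 31, was 26 with the BED lists, 28 with q below 1e-05 and 27 with reciprocal overlap. It was 19 in the gene bodies alone and 66 with 50 kb on either side, as the windows shrink or grow. With 1 replicate left out it was between 39 and 47, since a region then need not be shared. The median over the 8 genes of the percentile of the strongest region, 94.2, was 91.2 with the BED lists, ranked by tags, and between 94.2 and 97.2 with 1 replicate left out. The replicate split gave 0 calls under all 4 alternatives, with 1156 to 1778 unadjusted p under 0.05 over the genome and 0 in the windows. For values of single genes, 60 of 88 alternatives stayed within the set limits and 28 moved. The alternatives planned for other autophagy genes were not run. No paired analysis was possible because there was 1 ChIP group and so nothing to pair it with. Replicate 2 was the shallower library, so a site missing from it cannot be taken as absent.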
